A study of Mus musculus with 24 samples.

Results

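The Hox cluster genes are the genes of the Hoxa, Hoxb, Hoxc and Hoxd clusters, taken here as every gene whose single symbol in the array's probe table was Hoxa, Hoxb, Hoxc or Hoxd followed by digits alone. The rule found 34 genes of 17097 with a single-symbol probe set: 9 in Hoxa, 10 in Hoxb, 6 in Hoxc and 9 in Hoxd. They were read by 42 probe sets, and each gene was represented by the one with the highest mean over the 24 arrays.

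RNA from 24 tumours taken from mouse brain cortex was measured on single-colour Affymetrix arrays, with 1 array per tumour and values on a log2 scale. The tumours grew from cells that expressed RAB3A (6 tumours), BC74C (9 tumours) or ZNF668 (9 tumours), which the labels call the class gene. Each tumour also carries a label: 11 are labelled ependymoma, a tumour named for the ciliated cells that line the brain's ventricles, 4 HGG, which the labels do not spell out, 5 TUMOR with no type and 4 UNKNOWN. RAB3A tumours comprise 2 ependymoma, 2 TUMOR and 2 UNKNOWN, BC74C tumours 6 ependymoma, 2 HGG and 1 UNKNOWN, and ZNF668 tumours 3 ependymoma, 2 HGG, 3 TUMOR and 1 UNKNOWN. The labels give no strain, age, promoter or vector, no other allele of the cells, and no normal cortex or tumour without a class gene, so no Hox level here has an untransformed reference. They do not say that the tumours came from separate animals, so every p-value measures only the spread between these samples. Replicate numbers follow the order of deposit.

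Hox genes encode homeodomain transcription factors that give cells their position along the head-to-tail axis of the embryo. Genes at the low-numbered end of a cluster are used toward the hindbrain and those at the high-numbered end toward the tail, in the order in which they lie on the chromosome, and genes with the same number in different clusters are called paralogues. In the normal nervous system they are used in the hindbrain and spinal cord and are held silent in the forebrain, including the cortex, where Polycomb complexes keep the clusters closed. PBX and MEIS proteins, of the TALE family, bind DNA together with Hox proteins, while Trithorax and MLL proteins keep active Hox genes on, and retinoic acid switches on the low-numbered genes in the embryo.

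The 4 genes on which the results turn, Hoxa2, Hoxa3, Hoxa5 and Hoxa7, lie within a stretch of the Hoxa cluster on chromosome 6, transcribed from the minus strand. Their promoters are shown because these genes moved together. Each sequence is the 250 bases before the gene's RefSeq start in mouse assembly GRCm38.p6, written along the minus strand. Capitals mark matches, on either strand, to the motifs TGATNNAT, bound by PBX with a Hox partner, TGACAG, bound by MEIS, or CCAAT, a general promoter element. The windows are chr6:52164832-52165081 for Hoxa2, chr6:52213068-52213317 for Hoxa3, chr6:52204588-52204837 for Hoxa5 and chr6:52218574-52218823 for Hoxa7.
Hoxa2: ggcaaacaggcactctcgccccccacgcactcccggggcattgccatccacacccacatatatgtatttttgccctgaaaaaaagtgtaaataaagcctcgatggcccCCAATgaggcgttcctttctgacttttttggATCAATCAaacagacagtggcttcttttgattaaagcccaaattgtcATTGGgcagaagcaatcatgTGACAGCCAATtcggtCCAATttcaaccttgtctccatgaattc
Hoxa3: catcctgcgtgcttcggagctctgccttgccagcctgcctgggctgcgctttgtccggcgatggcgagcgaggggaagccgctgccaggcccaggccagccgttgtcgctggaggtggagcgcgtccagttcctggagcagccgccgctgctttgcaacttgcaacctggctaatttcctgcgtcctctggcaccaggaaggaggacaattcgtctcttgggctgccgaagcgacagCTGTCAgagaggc
Hoxa5: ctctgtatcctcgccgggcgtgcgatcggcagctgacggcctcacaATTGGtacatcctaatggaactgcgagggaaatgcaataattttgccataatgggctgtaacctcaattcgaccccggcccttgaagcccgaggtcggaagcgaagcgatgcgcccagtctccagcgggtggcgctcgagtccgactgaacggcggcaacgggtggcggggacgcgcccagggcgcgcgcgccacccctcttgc
Hoxa7: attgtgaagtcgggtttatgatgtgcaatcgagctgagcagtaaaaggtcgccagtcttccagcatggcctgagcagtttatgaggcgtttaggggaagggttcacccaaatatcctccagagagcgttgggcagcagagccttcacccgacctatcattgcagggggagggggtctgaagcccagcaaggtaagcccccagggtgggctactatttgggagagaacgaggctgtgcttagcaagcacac
The 4 windows had little in common by these motifs. The Hoxa2 window held 1 TGATNNAT match, 1 TGACAG match, which lies directly beside a CCAAT match, and 4 CCAAT matches in all. Those of Hoxa3 and Hoxa5 held 1 TGACAG and 1 CCAAT match respectively, and that of Hoxa7 held none. TGATNNAT occurred in 7.68% of 32851 RefSeq promoter windows of this length, TGACAG in 15.9% and CCAAT in 33.8%. Among 23 windows of 21 Hox genes, 4 held TGATNNAT, 2 held TGACAG and 13 held CCAAT (56.5%). TATAAA was in 4 of the 23 and TTTATGG, a CDX and posterior Hox motif, in 1, against 12.4% and 2.43% of all windows. The DR5 motif of retinoic acid receptors was in 0 of the 23 and in 0.00913% of all. CpG dinucleotides, which are dense in promoters that Polycomb can hold closed, numbered 28 in the Hoxa5 window, 18 in that of Hoxa3, 7 in that of Hoxa7 and 6 in that of Hoxa2, with a median of 6 over all windows and 12 over the Hox windows. The RefSeq model of Hoxa3 spans Hoxa4, Hoxa5 and Hoxa6, so its window lies on the far side of Hoxa5, and which of the overlapping transcripts a probe set read was not tested.

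Only Hoxa2, Hoxa3, Hoxa5 and Hoxa7 varied widely from tumour to tumour. Over the 24 tumours the log2 value of Hoxa5 had an SD of 1.94 and ran from 3.66 to 9.57. Hoxa7 had an SD of 1.58 (3.38 to 8.55), Hoxa2 1.41 (2.69 to 7.03) and Hoxa3 0.83 (3.28 to 5.79). The SDs of the other 30 Hox genes lay between 0.12 and 0.30. The median SD was 0.37 over all 17097 genes and 0.44 over the 13218 that passed the filter on low values. Of these 30 Hox genes 25 did not pass it, and the part of low signal in their small SDs was not tested. In bulk tumours, fewer cells that use a gene and less of its RNA per cell cannot be told apart.

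**Figure D1:**
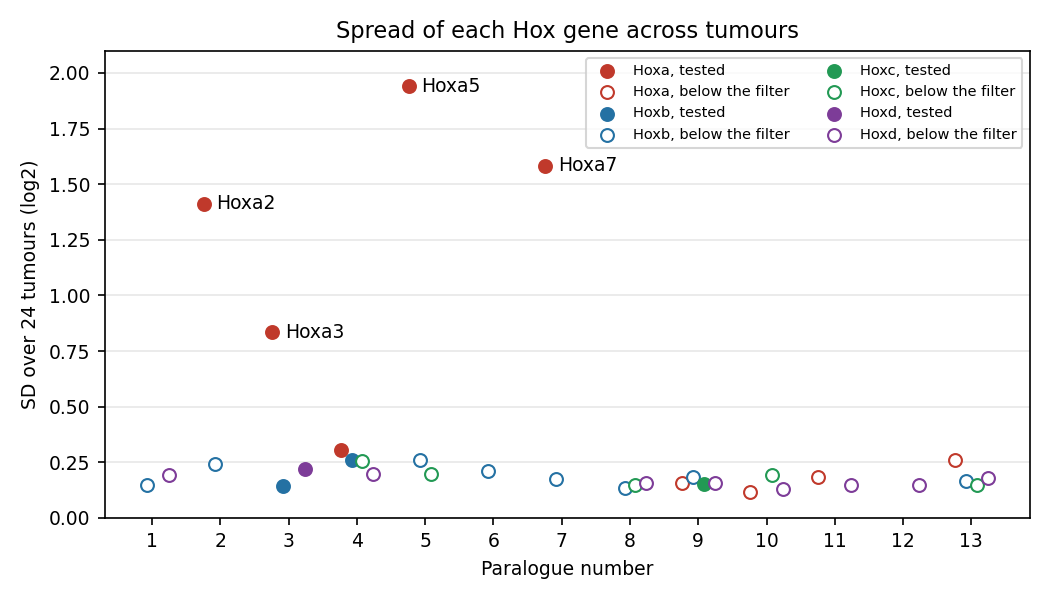
SD of each Hox gene's log2 value over the 24 tumours (vertical axis) against its paralogue number (horizontal axis), coloured by cluster; filled points passed the filter on low values. Hoxa2, Hoxa3, Hoxa5 and Hoxa7 stand at 0.83 to 1.94 and the other 30 genes at 0.12 to 0.30.

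The filter kept genes with a mean log2 value above 3.76, the 30th percentile over probe sets, and 9 Hox genes passed it: Hoxa2, Hoxa3, Hoxa4, Hoxa5, Hoxa7, Hoxb3, Hoxb4, Hoxc9 and Hoxd3. Just inside lay Hoxa4 with a mean of 3.84 and Hoxb4 with 3.88, and just outside Hoxa9 with 3.70 and Hoxb2 with 3.66. The 25 others did not pass, and 11 of them exceeded the filter level in at least 1 tumour, the highest being Hoxc5 at 4.27 in BC74C replicate 3. Outside Hoxa the highest value of any Hox gene in any tumour was 4.54, for Hoxb4 in RAB3A replicate 2. The deposited table gives no signal over background, so a low log2 value shows neither presence nor absence of a transcript.

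The wide spread was thus seen in 1 cluster and in its low-numbered and central genes. All 5 measured Hoxa genes numbered 2 to 7 passed the filter, and Hoxa9, Hoxa10, Hoxa11 and Hoxa13, the posterior genes of the same cluster, did not, with SDs of 0.12 to 0.26. Hoxa4, which lies between Hoxa3 and Hoxa5 on the chromosome, had an SD of only 0.30 (3.33 to 4.57). Paralogues of the variable genes in other clusters did not share the spread: Hoxb2, Hoxb3, Hoxd3, Hoxb5, Hoxc5 and Hoxb7 had SDs of 0.24, 0.14, 0.22, 0.26, 0.20 and 0.18. Among these paralogues only Hoxb3 and Hoxd3 passed the filter. By cluster the highest SD was 0.26 in Hoxb, 0.26 in Hoxc and 0.22 in Hoxd. Over the 14 genes numbered 9 to 13 in all clusters it was 0.26. Levels of different probe sets are not set against each other here, since each binds its own target with its own strength.

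For Hoxa3 the choice of probe set mattered. The chosen one can also bind related transcripts. The gene's other 3 probe sets had SDs of 0.29, 0.22 and 0.19 and correlated with it at r = 0.75, 0.53 and 0.32 over the 24 tumours. Hoxb3, Hoxb4, Hoxc5, Hoxd8 and Hoxd13 had a second probe set each, with SDs of 0.14 to 0.28. Hoxa2, Hoxa4, Hoxa5 and Hoxa7 had 1 probe set each.

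Hoxa5, Hoxa7, Hoxa2 and Hoxa3 were high and low in the same tumours. BC74C replicate 6 (ependymoma) had the highest Hoxa5 value, 9.57, with 8.23 for Hoxa7, 6.41 for Hoxa2 and 4.97 for Hoxa3. ZNF668 replicate 2 (HGG) followed, with 9.29 for Hoxa5, 8.55 for Hoxa7, 6.84 for Hoxa2 and 5.22 for Hoxa3. At the other end stood BC74C replicate 7 (HGG), with 3.66 for Hoxa5, 3.98 for Hoxa7, 3.05 for Hoxa2 and 3.61 for Hoxa3. The largest gap in the ordered Hoxa5 values was 0.86, between 4.36 and 5.22, with 5 tumours below it and 19 above, so the tumours formed a graded series rather than separate high and low sets.

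**Figure D2:**
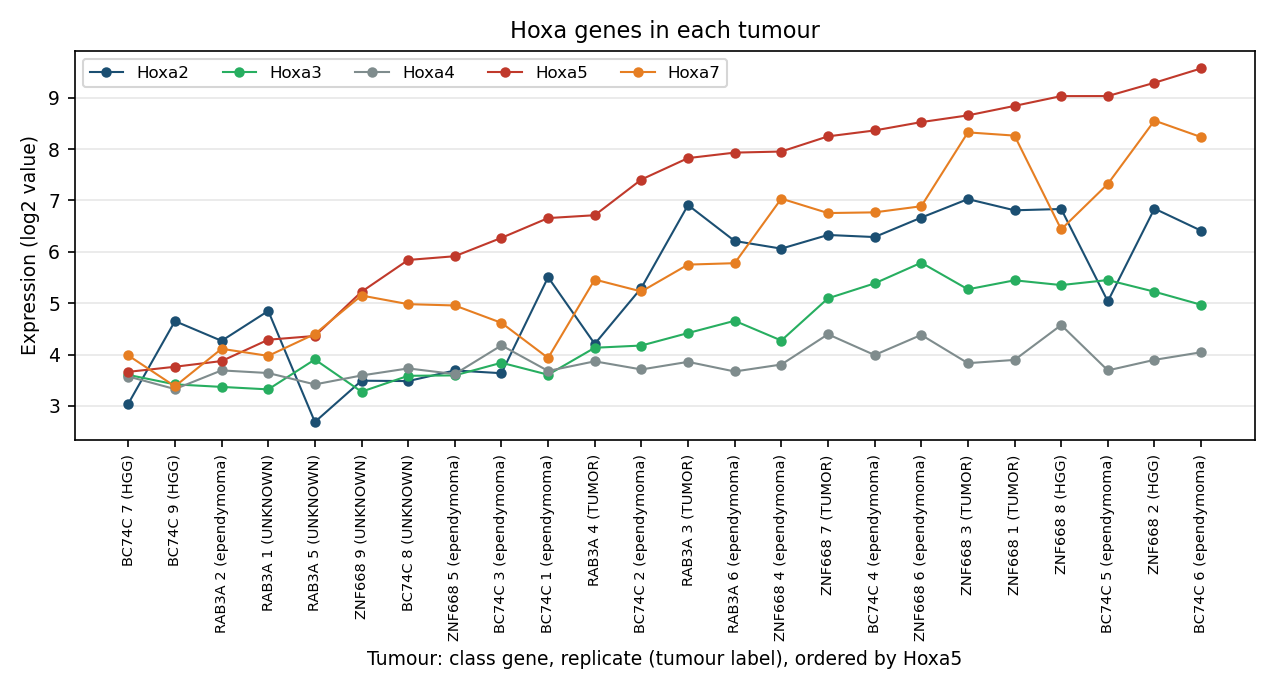
Log2 values (vertical axis) of Hoxa2, Hoxa3, Hoxa4, Hoxa5 and Hoxa7 in each of the 24 tumours, ordered by Hoxa5 (horizontal axis, named by class gene, replicate and tumour label). Hoxa5 climbs from 3.66 to 9.57, Hoxa7, Hoxa2 and Hoxa3 follow it with exceptions, and Hoxa4 stays between 3.33 and 4.57.

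Some tumours departed from the shared order. BC74C replicate 5 had Hoxa5 at 9.03 and Hoxa2 at 5.04, while RAB3A replicate 3 had Hoxa5 at 7.82 and Hoxa2 at 6.91. BC74C replicate 1 combined Hoxa5 at 6.66 with Hoxa7 at 3.93, among the 3 lowest Hoxa7 values. RAB3A replicate 5 had the lowest Hoxa2 value, 2.69, with Hoxa5 at 4.36. So a tumour's Hoxa5 value did not fix that of its neighbours in the cluster.

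Correlations were computed for the 36 pairs among the 9 genes that passed the filter, each over 24 tumours, with p from 100000 permutations adjusted over the 36. All 10 pairs within Hoxa passed, with r from 0.51 to 0.89 (median 0.76) and adjusted p from 9e-05 to 0.0408. The closest pair was Hoxa5 with Hoxa7 (r = 0.894, rho = 0.917, permutation p = 1e-05 for both, the smallest these permutations can give, adjusted 9e-05 and 0.00012). Next were Hoxa3 with Hoxa5 (r = 0.885, rho = 0.887) and Hoxa3 with Hoxa7 (r = 0.865, rho = 0.833). Hoxa2 with Hoxa5 had r = 0.819 and rho = 0.791. The loosest was Hoxa4 with Hoxa7 (r = 0.505, permutation p = 0.0113, adjusted 0.0408; rho = 0.634, adjusted 0.00436). Many genes outside the clusters had r of such sizes: 125 of 13208 had r above 0.7 with Hoxa5. Hoxa4, at r = 0.642, held only place 358 among all genes tested. The share of all gene pairs that would pass was not counted.

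Of the 26 pairs with at most 1 Hoxa gene, 0 passed by either coefficient, with r from -0.34 to 0.34. Each of the 26 also had an unadjusted permutation p above 0.05 for r. The 4 pairs of paralogues among them had r = -0.01 for Hoxa3 with Hoxb3, -0.19 for Hoxa3 with Hoxd3, -0.12 for Hoxa4 with Hoxb4 and 0.34 for Hoxb3 with Hoxd3. Hoxb3 and Hoxb4, neighbours in the Hoxb cluster, had r = 0.00. Hoxb3, Hoxb4, Hoxc9 and Hoxd3 had means of 3.88 to 4.10, near the filter level of 3.76, and SDs of 0.14 to 0.26. A low r with such genes therefore shows little.

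**Figure D3:**
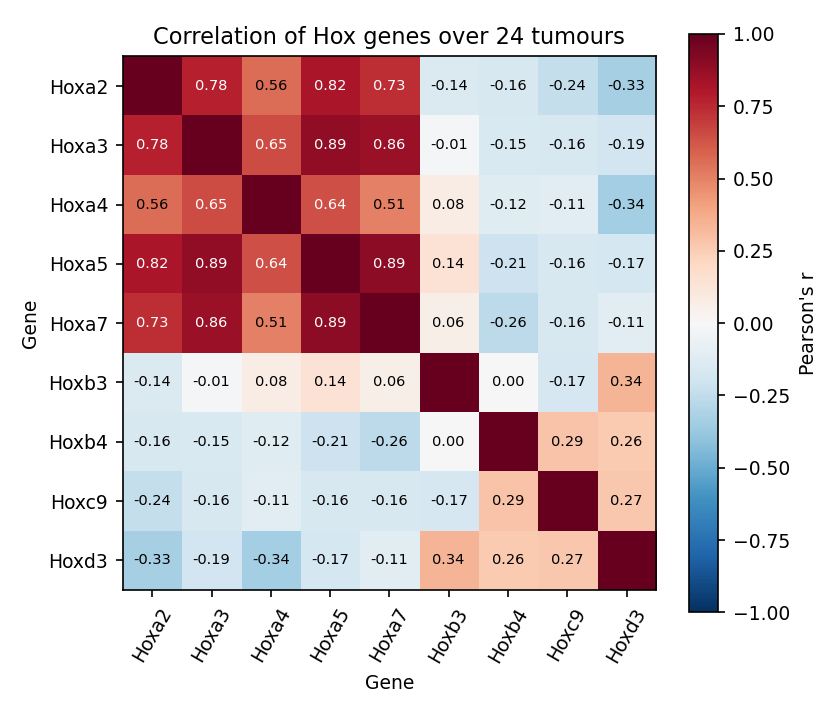
Pearson's r over 24 tumours for each pair of the 9 Hox genes that passed the filter (both axes list genes; colour and number give r). The Hoxa block reaches from 0.51 to 0.89 and every other pair lies between -0.34 and 0.34.

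In smaller sets of tumours the Hoxa correlations kept their sign, and fewer passed. When the 2 tumours most distant from the median of a pair's first gene were dropped, the 10 values of r lay between 0.47 and 0.89. Titles of 18 tumours begin with elw and of 6 with mmr, which may or may not mark a batch: within elw the 10 Hoxa pairs had r of 0.44 to 0.90 and 7 passed, and within mmr they had r of 0.70 to 0.94 and 0 passed. With the class gene means removed they had r of 0.35 to 0.88, and 8 of 10 passed. Pairs with Hoxa4 were the ones that no longer passed, Hoxa2 with Hoxa4 (r = 0.47) and Hoxa4 with Hoxa7 (r = 0.35). With the gene's second-brightest probe set in place of the chosen one, Hoxa3 had r = 0.78 with Hoxa5 and 0.76 with Hoxa7.

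Hox genes that did not pass the filter were set against Hoxa5 as a description, with no test. Their r lay between -0.51 for Hoxa13 and 0.46 for Hoxa10, with a median of -0.02 over 25 genes. Over all pairs of members, measured high or low, the median r was 0.15 within Hoxa (36 pairs), 0.05 within Hoxb (45 pairs), 0.04 within Hoxc (15 pairs), 0.03 within Hoxd (36 pairs) and 0.04 between paralogues (34 pairs). These points share the same 24 arrays and their common scaling.

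Class gene comparisons asked whether tumours grown from cells with different genes use Hox genes differently. Hoxa2, Hoxa3, Hoxa5 and Hoxa7 averaged lower in RAB3A than in ZNF668 tumours and lower in BC74C than in ZNF668 tumours, but limma called none of them after adjustment over 13218 genes, and the groups overlapped for each.

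Hoxa5, which patterns the neck region and the lung, ran in RAB3A tumours from 3.87 to 7.93 (median 5.54), in BC74C tumours from 3.66 to 9.57 (median 6.66) and in ZNF668 tumours from 5.22 to 9.29 (median 8.52). Its means were 5.83 ± 1.87 (SD, n = 6), 6.73 ± 2.11 (SD, n = 9) and 7.96 ± 1.43 (SD, n = 9). The lowest ZNF668 tumour lay below 3 of 6 RAB3A and 7 of 9 BC74C tumours. The log2 difference of RAB3A from ZNF668 was -2.13 (SE 0.91, limma adjusted p = 0.525) and that of BC74C from ZNF668 -1.23 (SE 0.81, adjusted p = 0.888).

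Hoxa7, a trunk patterning gene, ran from 3.98 to 5.78 (median 4.93) in RAB3A, from 3.38 to 8.23 (median 4.98) in BC74C and from 4.96 to 8.55 (median 6.89) in ZNF668 tumours. Its means were 4.91 ± 0.84 (SD, n = 6), 5.38 ± 1.68 (SD, n = 9) and 6.93 ± 1.31 (SD, n = 9). RAB3A tumours were all at or below 5.78, a value that 7 of 9 ZNF668 tumours exceeded. The difference was -2.02 for RAB3A minus ZNF668 (SE 0.69, limma adjusted p = 0.479) and -1.55 for BC74C minus ZNF668 (SE 0.62, adjusted p = 0.523).

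Hoxa2, which sets the identity of the second pharyngeal arch and is the Hox gene that reaches farthest forward in the hindbrain, ran from 2.69 to 6.91 (median 4.56) in RAB3A, 3.05 to 6.41 (median 5.04) in BC74C and 3.49 to 7.03 (median 6.67) in ZNF668 tumours. Of the ZNF668 tumours 7 lay above 6 and 2 below 4. The differences from ZNF668 were -1.12 for RAB3A (SE 0.68, limma adjusted p = 0.563) and -1.15 for BC74C (SE 0.61, adjusted p = 0.796).

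Hoxa3, a gene of the third pharyngeal arch and of thymus and parathyroid development, averaged 3.97 ± 0.54 (SD, n = 6), 4.23 ± 0.82 (SD, n = 9) and 4.81 ± 0.88 (SD, n = 9) in RAB3A, BC74C and ZNF668 tumours. Hoxa4 averaged 3.69 ± 0.17, 3.77 ± 0.26 and 4.0 ± 0.36 in the same order. It lay near the filter level of 3.76 in RAB3A and BC74C tumours and passed through its ZNF668 values, so its order between class genes supports nothing. The RAB3A minus ZNF668 differences were -0.85 (SE 0.40) for Hoxa3 and -0.31 (SE 0.15) for Hoxa4. Their limma adjusted p were 0.535 and 0.541. In a fit with no filter, the other probe sets of Hoxa3 gave -0.40 (SE 0.14), -0.21 (SE 0.11) and -0.03 (SE 0.10).

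**Figure D4:**
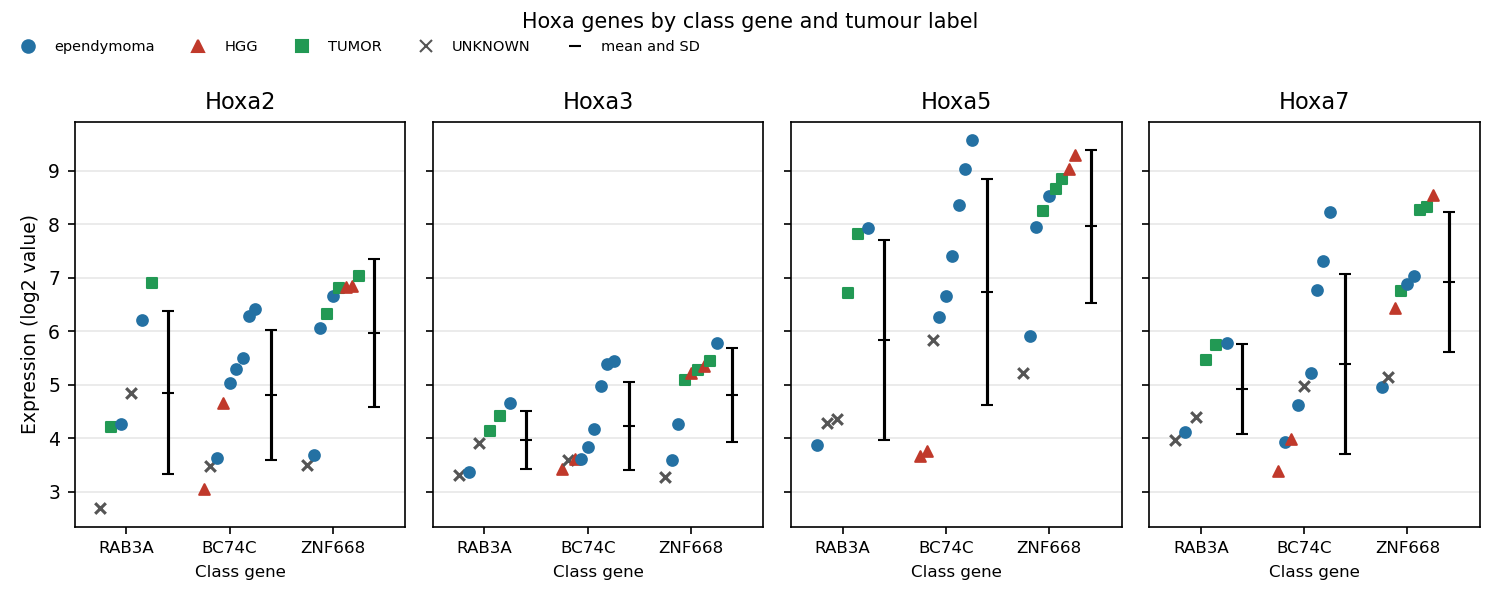
Log2 values (vertical axes) of Hoxa2, Hoxa3, Hoxa5 and Hoxa7 in RAB3A (6), BC74C (9) and ZNF668 (9) tumours, 1 point per tumour with the marker giving its label, and the mean with its SD at the right of each group. In each gene the 3 class genes overlap, and in Hoxa5 the HGG tumours are the lowest of BC74C and the highest of ZNF668.

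The Hox genes of the other clusters lay close together between class genes. Hoxb3 averaged 3.90 ± 0.12, 3.98 ± 0.14 and 3.85 ± 0.14 in RAB3A, BC74C and ZNF668 tumours, Hoxc9 4.19 ± 0.12, 4.05 ± 0.11 and 4.09 ± 0.19, and Hoxd3 4.04 ± 0.18, 3.98 ± 0.18 and 3.93 ± 0.28. Hoxb4 averaged 4.04 ± 0.33, 3.90 ± 0.19 and 3.77 ± 0.25, in the opposite order to the Hoxa genes (RAB3A minus ZNF668 0.27, SE 0.13, limma adjusted p = 0.542). Each SD here is over 6, 9 and 9 tumours.

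By counts, 0 of the 9 Hox genes passed for RAB3A minus ZNF668, where limma called 10 of 13218 genes (0.0757%), and 3 of 9 had an unadjusted p under 0.05 against 9.21% of all genes: Hoxa7, Hoxa5 and Hoxa3. For BC74C minus ZNF668 0 of 9 passed (0.303% of all genes) and Hoxa7 alone had an unadjusted p under 0.05 (6.88% of all genes). For RAB3A minus BC74C 0 of 9 passed, 0% of all genes were called and 0 of 9 were under 0.05 unadjusted (8.21%). The test for any difference among the class genes called 0 of 9 (0.31% of all genes). Hoxa7 was again the 1 under 0.05 unadjusted (8.97%). The median difference of the 5 Hoxa genes was -1.12 for RAB3A minus ZNF668 and -1.15 for BC74C minus ZNF668, against -0.04 and 0.00 over all genes tested. These medians are descriptions, since the 5 genes correlate across tumours and Hoxa4 passed the filter through its ZNF668 values. These comparisons share the ZNF668 tumours.

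The differences depended on which tumours and covariates were used. RAB3A minus ZNF668 for Hoxa5 was -2.52 within elw titles (4 and 6 tumours) and -1.35 within mmr titles (2 and 3 tumours), and for Hoxa7 -2.51 and -1.02. Among tumours labelled ependymoma alone, BC74C minus ZNF668 was 0.42 for Hoxa5, the opposite sign (6 and 3 tumours, limma adjusted p = 0.974), 0.02 for Hoxa3, -0.28 for Hoxa7 and -0.11 for Hoxa2. RAB3A minus ZNF668 there kept its sign, at -1.56 for Hoxa5, -1.35 for Hoxa7, -0.54 for Hoxa3 and -0.23 for Hoxa2. No other tumour label was fitted alone. With the mean of the mature neuron list as a covariate, RAB3A minus ZNF668 was -1.44 for Hoxa5, -1.71 for Hoxa7, -0.60 for Hoxa3 and -0.36 for Hoxa2. With it 1 of the 9 Hox genes had an unadjusted limma p under 0.05, where 3 had it without the covariate. Over all 13218 genes tested the number fell too, from 1217 without the covariate to 647 with it. The mature neuron list averaged 9.06 in RAB3A tumours (7.62 to 9.90), 8.61 in BC74C (6.91 to 9.94) and 7.97 in ZNF668 (5.20 to 9.69).

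Across tumour labels the UNKNOWN tumours lay below the TUMOR tumours in Hoxa5, while HGG and ependymoma tumours spanned both. Hoxa5 was 4.29 and 4.36 in the RAB3A, 5.84 in the BC74C and 5.22 in the ZNF668 tumour labelled UNKNOWN, all below the lowest TUMOR value. The 5 TUMOR values were 6.71, 7.82, 8.25, 8.65 and 8.84. The 11 ependymoma tumours ran from 3.87 to 9.57 (median 7.93), and the 4 HGG tumours stood at 3.66, 3.76, 9.03 and 9.29. Hoxa2 had overlapping ranges in the same order, with UNKNOWN at 2.69 to 4.85 (median 3.49) and TUMOR at 4.21 to 7.03 (median 6.81). Hoxa7 ran from 3.98 to 5.15 in UNKNOWN, 5.46 to 8.32 in TUMOR, 3.93 to 8.23 in ependymoma and 3.38 to 8.55 in HGG tumours. No contrast of UNKNOWN with TUMOR was fitted, and the share of all genes that separate them was not counted. The TUMOR tumours include no BC74C tumour, so label and class gene are partly mixed here. The lowest Hoxa5 values of all, 3.66, 3.76 and 3.87, were those of 2 HGG tumours and 1 ependymoma tumour.

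The test for any difference among the 4 labels, with class gene as a covariate, did not call a Hox gene. It called 0 of 9 Hox genes and 0% of all genes. Hoxa2 and Hoxa5 were the 2 under 0.05 unadjusted (8.6% of all genes), with limma adjusted p of 0.566 and 0.567. Hoxa3, Hoxa7 and Hoxa4 had limma adjusted p of 0.594, 0.63 and 0.77. HGG minus ependymoma called 0 of 9 Hox genes and 0% of all genes. Its differences were -1.56 for Hoxa5 (SE 1.09), -0.76 for Hoxa7 (SE 0.89), -0.24 for Hoxa2 (SE 0.72) and -0.26 for Hoxa3 (SE 0.49), each with limma adjusted p = 1.0. Hoxd3 alone was under 0.05 unadjusted (1.73% of all genes), at -0.31 (SE 0.14). Single tumours moved these values. Without BC74C replicate 7 Hoxa5 was -0.73, Hoxa7 -0.40 and Hoxa2 0.50, the opposite sign. Without BC74C replicate 9 Hoxa5 was -0.77, Hoxa7 -0.15, Hoxa3 0.03 and Hoxa4 0.05. Within elw titles Hoxa7 was -0.03.

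HGG and ependymoma tumours differed in Hoxa5 in opposite directions in BC74C and ZNF668 tumours. In BC74C the 2 HGG tumours had 3.66 and 3.76 and the 6 ependymoma tumours 6.27, 6.66, 7.41, 8.36, 9.03 and 9.57, so every HGG value lay below every ependymoma value. In ZNF668 the 2 HGG tumours had 9.03 and 9.29 and the 3 ependymoma tumours 5.91, 7.95 and 8.52, so every HGG value lay above. The difference of means was -4.17 in BC74C and 1.70 in ZNF668, and the difference between them -5.87 (SE 1.29).

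limma's interaction test gave this difference an unadjusted p of 0.000709 and an adjusted p of 0.591, and it called 0 genes (8.16% had an unadjusted p under 0.05). Hoxa5 was singled out here after its values had been seen, so the unadjusted p is no test of its own. Leaving out any 1 of the 13 tumours kept the difference between -6.40 and -5.09. Of all genes tested, 2.59% had every BC74C HGG tumour below every ependymoma tumour, 18.2% had every ZNF668 HGG tumour above, and 0.635% had both.

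Markers of other cell types moved with the same contrast. For the proliferation list 0 of 13 genes had a positive interaction estimate and 5 had an unadjusted p under 0.05 (median -2.90). For endothelial genes 1 of 9 was positive and 7 were under 0.05 unadjusted (median -1.81), and for pericyte and fibroblast genes 0 of 10 and 6 (median -1.75). Midbrain and hindbrain identity genes had 0 of 7 positive (median -1.82), mature neuron genes 12 of 14 (median 2.51) and microglia and macrophage genes 11 of 12 (median 1.0). Neural stem and radial glia genes had 1 of 12 positive (median -0.56) and forebrain identity genes 11 of 12 (median 0.94). The median over all genes tested was -0.01, and limma called no gene of any list. The pericyte and fibroblast list mean ran from 5.68 to 5.89 in BC74C HGG, 6.01 to 7.56 in BC74C ependymoma, 7.01 to 7.60 in ZNF668 HGG and 5.94 to 6.21 in ZNF668 ependymoma tumours, so its order was that of Hoxa5. In the same 4 groups the endothelial list ran from 5.47 to 6.20, 5.89 to 6.74, 6.94 to 7.07 and 5.90 to 6.25, and the proliferation list from 6.88 to 8.11, 5.79 to 9.44, 9.29 to 9.74 and 5.79 to 8.46. The mature neuron list ran from 7.32 to 9.94, 6.91 to 9.85, 6.87 to 7.17 and 7.75 to 9.69, and with it as a covariate the Hoxa5 interaction was -5.31. The part of the other lists in it was not tested.

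The other Hoxa genes that passed the filter had interaction estimates of the same sign. They were -3.54 for Hoxa7 (SE 1.59), -2.88 for Hoxa2 (SE 1.23), -1.80 for Hoxa3 (SE 0.88) and -0.73 for Hoxa4 (SE 0.36), with limma adjusted p between 0.597 and 0.602. The Hoxa3 estimate depended on its probe set. In a fit with no filter on low values, its other probe sets gave -0.33 (SE 0.34), -0.35 (SE 0.30) and 0.19 (SE 0.26). The last 2 of these had means of 3.50 and 3.52, under the filter level. Hoxa5, Hoxa2 and Hoxa7 were the 3 of 9 Hox genes under 0.05 unadjusted. The HGG values lay below every ependymoma value in BC74C for Hoxa3 and Hoxa4 and above every one in ZNF668 for Hoxa2. For Hoxa3 the highest HGG value was 3.605 and the lowest ependymoma value 3.609. For Hoxa4 these were 3.57 and 3.68, under the filter level of 3.76. Such separations were met in 2.59% (BC74C) and 18.2% (ZNF668) of all genes tested. Hoxa7 overlapped in both: the BC74C HGG tumours had 3.38 and 3.98 against an ependymoma low of 3.93, and the ZNF668 HGG tumours 6.44 and 8.55 against an ependymoma high of 7.03. Each HGG group has 2 tumours, 1 with an elw and 1 with an mmr title.

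Tumours with mmr titles did not differ from those with elw titles past the threshold in any Hox gene (0 of 9, and 0% of all genes, with 8.17% under 0.05 unadjusted and 0 of the 9). The difference was -0.88 for Hoxa5 (SE 0.83) and -0.97 for Hoxa7 (SE 0.62). That of Hoxa5 was -0.23 without BC74C replicate 9, -0.45 without ZNF668 replicate 9 and -1.47 without RAB3A replicate 6, and that of Hoxa7 was -0.63 without BC74C replicate 9.

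Hoxa5 was then set against 18 gene lists, as the mean log2 value of each list's tested genes. The list of neural stem and radial glia genes followed it: r = 0.764 over 24 tumours (permutation p = 5e-05, adjusted over the 18 lists 0.0009) and rho = 0.783 (adjusted 0.00036). Dropping the 2 tumours whose Hoxa5 lay farthest from its median gave r = 0.87. It was 0.83 within elw, 0.68 within mmr and 0.76 with the class gene means removed. All 12 of 12 list members had r above 0, from 0.06 for Prom1 to 0.78 for Tnc, an extracellular matrix protein of radial glia, and 0.75 for Fabp7, the brain lipid binding protein. The list mean ran from 7.83 to 9.30 in RAB3A, 8.18 to 9.72 in BC74C and 7.48 to 9.63 in ZNF668 tumours.

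**Figure D5:**
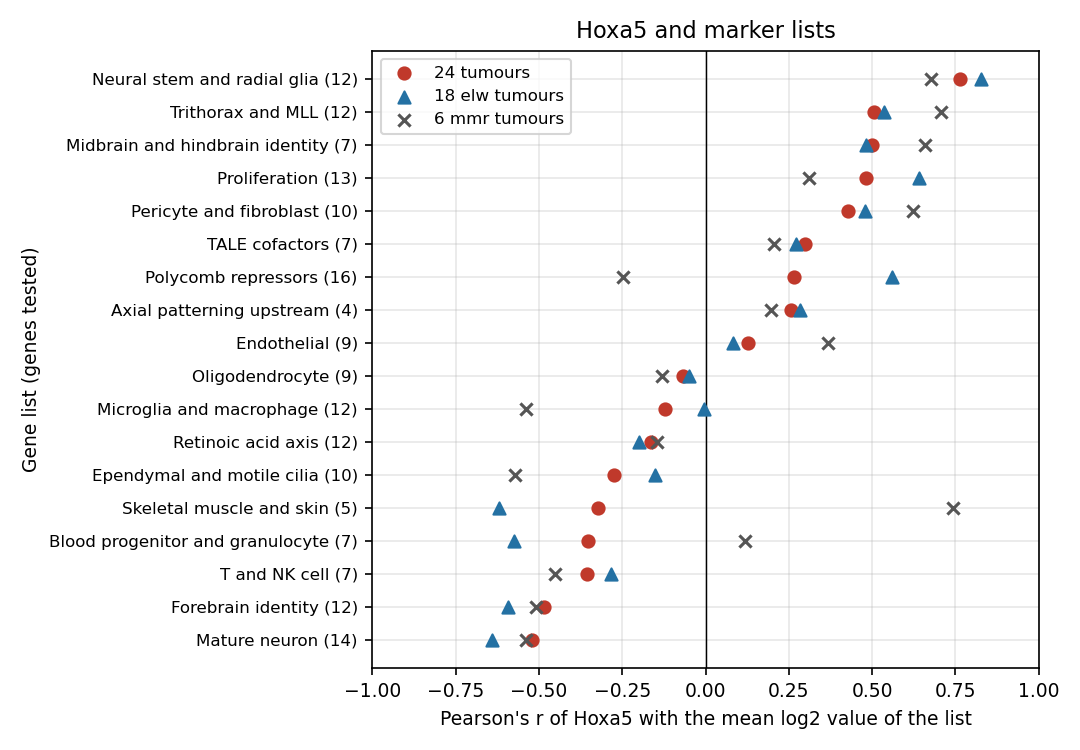
Pearson's r of Hoxa5 with the mean log2 value of each gene list (horizontal axis), for 24 tumours (circles), the 18 elw tumours (triangles) and the 6 mmr tumours (crosses); the number of genes tested is given after each list name. The neural stem and radial glia list lies at 0.76, 0.83 and 0.68.

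Other lists missed the threshold by r, and some passed by rank. Mature neuron genes had r = -0.522 (permutation p = 0.00927, adjusted 0.0576) and rho = -0.590 (adjusted 0.0258). Midbrain and hindbrain identity genes had r = 0.498 (adjusted 0.0576) and rho = 0.537 (adjusted 0.0342). Forebrain identity genes had r = -0.484 and rho = -0.464, with adjusted permutation p of 0.0591 and 0.0718. The proliferation list, with r = 0.480, had the same adjusted p values, and all 13 of its members had r above 0.

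Position markers of the brain did not all follow their lists. Among hindbrain and midbrain genes Irx3 and En1 had r of 0.63 and 0.62 with Hoxa5, and Lhx1 and Lhx5 -0.25 and -0.15. Among forebrain genes Fezf2, Dlx1 and Tbr1 had r of -0.52, -0.52 and -0.46, while Emx2, a cortical progenitor gene, had 0.52. These genes were named after their values were seen. As for the tissue label, the cortical genes Lhx2 and Emx2 ran from 6.83 to 9.67 and from 4.31 to 8.44. Tbr1, a gene of cortical neurons, ran from 3.37 to 8.82, and Emx1, of the forebrain list, only from 4.21 to 5.83. Foxj1, the master gene of motile cilia that defines ependymal cells, ran from 5.47 to 8.12 in ependymoma and from 5.68 to 6.96 in HGG tumours.

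Lists of blood, vessel, connective and other cell types gave no correlation past the threshold. The blood progenitor and granulocyte list had r = -0.35 (adjusted permutation p = 0.18), and its mean ran from 6.58 to 7.98 in RAB3A, 6.02 to 7.43 in BC74C and 6.55 to 8.18 in ZNF668 tumours. Pericyte and fibroblast genes had r = 0.43 (adjusted 0.0981), microglia and macrophage genes -0.12, T and NK cell genes -0.36, endothelial genes 0.13 and skeletal muscle and skin genes -0.32. The oligodendrocyte list had r = -0.07 and the ependymal and motile cilia list -0.28. The part of any of these cells in the Hoxa values was not tested.

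Transcripts of the Y chromosome also followed Hoxa5. Kdm5d had r = 0.81, Uty 0.80 and Eif2s3y 0.75, while Xist, made from the silenced X chromosome of female cells, had -0.53. Kdm5d ran from 2.89 to 8.74 and Xist from 8.67 to 12.2. These 4 genes were chosen after Kdm5d and Uty had appeared among the genes most like Hoxa5, so the values are a description with no test, and their part in the Hoxa values was not tested.

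With such values held constant, partial r stayed above 0 in all 10 Hoxa pairs, with lower medians and some values close to 0. The lowest were Hoxa4 with Hoxa7 (0.18) and Hoxa2 with Hoxa4 (0.19), both with Kdm5d held constant. The 10 Hoxa pairs had a median partial r of 0.71 with the mature neuron list held constant (0.39 to 0.88), 0.54 with the neural stem list (0.34 to 0.82), 0.71 with the proliferation list (0.44 to 0.89) and 0.47 with Kdm5d (0.18 to 0.82), against 0.76 with nothing held constant. These partial correlations were chosen after the data were seen and carry no test.

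Genes known to regulate or partner Hox proteins did not differ between class genes past the threshold. Of the TALE cofactors 0 of 7 were called for RAB3A minus ZNF668, with Meis1 at -0.55, Pbx2 at -0.15, Meis2 at 0.04 and Pknox2 at 0.08. On the Polycomb list 0 of 16 genes were called. Cbx2 stood at -0.50, Phc2 at -0.24, Ezh1 at 0.57 and Cbx7 at 0.72 (limma adjusted p of 0.541, 0.559, 0.543 and 0.534). The list also holds Kdm6a, a demethylase that opposes Polycomb. On the Trithorax and MLL list 0 of 12 genes were called. Dpy30 stood at -0.20, Men1 at -0.23, Kmt2b at 0.13 and Ctcf at 0.32. Ctcf, an insulator protein, is on this list but is not a Trithorax or MLL gene. Of the retinoic acid genes 0 of 12 were called, with the synthesis enzyme Aldh1a3 at -0.38, Rxrg at -0.63, the binding protein Crabp2 at 0.47 and the degrading enzyme Cyp26b1 at 0.67. Of 4 tested genes that act upstream in axial patterning 0 were called. Egr2, which sets the identity of hindbrain segments, ran from 4.01 to 8.72 and had r = 0.28 with Hoxa5. In the other 7 comparisons these lists had 0 genes called as well, beside 0% to 0.31% of all genes.

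Against Hoxa5, the TALE list mean had r = 0.30 (adjusted permutation p = 0.256), the Polycomb list 0.27 (0.291), the Trithorax and MLL list 0.51 (0.0576, and 0.0342 by rank), the retinoic acid list -0.16 (0.531) and the axial patterning list 0.26 (0.291). The Polycomb members were divided: Cbx2, Phc2 and Rnf2 had r of 0.63, 0.59 and 0.52, and Ezh1 and Cbx7 -0.69 and -0.65. Among TALE genes Meis1 and Pknox1 had r of 0.58 and 0.55 and Pbx3 -0.24. On the Trithorax and MLL list, which also holds Ctcf, 10 of 12 genes had r above 0. Wdr5, a core subunit of MLL complexes, had 0.62 and Rbbp5, another, -0.53. These members were named after their values were seen.

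The noncoding transcripts of the clusters added 1 gene to the picture. Hoxaas2, an antisense transcript of the Hoxa cluster, ran from 3.34 to 5.19 and had r = 0.77 with Hoxa5, place 15 among all genes. It overlaps coding Hoxa genes, and whether the deposited values separate the strands was not tested. Hoxa11os, Hoxb5os and Hoxd3os1 had r of -0.20, -0.02 and -0.23.

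Ranked by r with Hoxa5 over 24 tumours among all genes tested, Hoxa7 and Hoxa3 held places 1 and 2, Skap2 place 3 and Hoxa2 place 4, while Hoxa4 held place 358. Outside the Hox clusters the 10 most alike were Skap2 (0.82), Kdm5d (0.81), Uty, Mkrn3 and Zfp41 (0.80 each), Ckap4 (0.79), Ppp1r14b, Fbxl7 and Tnc (0.78 each) and Map4k4 (0.77). The 5 most opposed were Rgs11 (-0.80), Tecpr2 (-0.77) and Drc3, Prxl2a and Atg10 (-0.75 each). In all, 125 of 13208 genes outside the clusters had r above 0.7 and 38 below -0.7, so values of this size were met in many genes.

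Skap2, an adaptor protein of immune cell signalling and adhesion, flanks the Hoxa cluster in the RefSeq order, and the genes flanking the cluster were examined after its rank was seen, as a description with no test. Skap2 ran from 8.40 to 10.8 and had r = 0.82 with Hoxa5 (rho = 0.78). It had r = 0.88 within elw and 0.77 within mmr. Snx10, the next gene, ran the other way (r = -0.67), and Cbx3 and Hnrnpa2b1 beyond it had r of 0.45 and 0.42. On the Hoxa13 side Hibadh, Tax1bp1 and Jazf1 had r of 0.07, -0.27 and -0.45. Creb5, farther out, had 0.63. The 10 flanking genes examined thus did not share 1 direction.

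As a check of the labels, the mouse transcripts of the class genes were compared with the other tumours by exact permutation tests, adjusted over the 3. The difference was 0.65 for Rab3a (exact p = 0.259), 0.49 for Bcl7c, only a candidate for BC74C, which is not an approved symbol (exact p = 0.0397, adjusted 0.119), and 0.08 for Zfp668 (exact p = 0.521). A probe set for the mouse gene need not read an introduced human sequence. The arrays' medians lay between 4.98 and 5.19, and pairs of arrays correlated at 0.89 to 0.99 over all probe sets.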

How the data were processed

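RNA was isolated with Trizol and hybridised as biotinylated cRNA, per the labels' protocols. The authors deposited 1 log2 value per probe set and tumour for 45141 probe sets. Partek 6.6 is named in the submitters' processing notes; background correction, normalization and probe summary are not given in the sources used here. The log2 unit and the common scale of the deposited values are inferred from their range; the upper quartile lay between 7.58 and 7.69 in every array. If arrays were equalised in scaling, a change common to most genes would not show. Precision is limited by the number of arrays.

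The 104 control probe sets were left out, and 28898 others carry 1 symbol, 551 several and 15588 none. Genes whose probe set mean lay under the 30th percentile (3.76) were not tested, which left 13218 of 17097. Differences were fitted in R 4.3.3 by the limma package, version 3.58.1, through lmFit and a trended eBayes. Tests were two-sided, p-values were adjusted by Benjamini-Hochberg over the 13218 genes, with a threshold of 0.05. The class gene comparisons used all 24 tumours, HGG minus ependymoma 15 with class gene as a covariate, and the interaction 13. Permutation p-values came from 100000 resamples. In simulated data with 200 genes changed by 1 or 2 log2 units, the fit recovered 63% and 89% for RAB3A minus ZNF668, 72% and 92% for BC74C minus ZNF668, 56% and 87% for RAB3A minus BC74C, 45% and 84% for HGG minus ependymoma, 62% and 90% for mmr minus elw titles, and 1% and 20% for the interaction. Real genes vary together, so these shares do not give the power on real data.

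Promoters, gene order and gene names come from RefSeq tables of GRCm38.p6, where all 34 members matched by Entrez identifier. Members and gene lists were chosen with earlier results of these data known. Group values were given for members that passed the filter. The naming rule took the 10 genes most like Hoxa5 and the 5 most opposed, and per regulator list the 2 highest and 2 lowest moderated t, passing over names from predictions or clones (2 here). Python 3.11.15, pandas 2.3.3, scipy 1.17.1 and matplotlib 3.10.9 were used.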

Additional observations from a re-analysis of the deposited data

Results flagged for a closer look

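Among 54 groups of 4 to 10 tumours tested for a tumour far from the rest, 2 were flagged. That is no more than the 1 in 20 or so that chance gives. In the 5 TUMOR tumours, Hoxa2 was 4.21 in RAB3A replicate 4 against 6.33 in the nearest other tumour. In the same 5 tumours, Hoxa4 was 4.40 in ZNF668 replicate 7 against 3.90 in the nearest other. The difference of HGG from ependymoma in Hoxa5 itself differed between BC74C and ZNF668 tumours, by -5.87 on the log2 scale (limma adjusted p = 0.591 over all genes). This gene was singled out after its values had been seen.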

How the results depend on the processing

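No Hox gene was called by limma in any of the 8 comparisons under any setting tried, including leaving out each tumour. At an unadjusted p under 0.05, limma had 1217 genes for RAB3A minus ZNF668, 909 for BC74C minus ZNF668 and 1085 for RAB3A minus BC74C. It had 1186 for any difference among class genes, 229 for HGG minus ependymoma and 1137 for any difference among tumour labels. For mmr minus elw titles it had 1080 and for the interaction 1079. Counts over all genes were less stable. For RAB3A minus ZNF668, 10 genes called became 6 with no filter on low values, 21 within elw titles and with array weights, and 0 within mmr titles, with the mature neuron covariate, with only those 2 class genes fitted, and in ependymoma tumours alone. For BC74C minus ZNF668, 40 became 130 with array weights, 66 with the neuron covariate and 0 in ependymoma tumours alone. For RAB3A minus BC74C, 0 became 1 with no filter, 2 with the mean of all probe sets, with median centring and with title prefix as a block, and 5 with the neuron covariate. Among class genes, 41 became 22 with the prefix block and 109 with array weights. Among tumour labels, 0 became 4 with array weights, and for mmr minus elw titles 0 became 3 with no filter, 1 with quantile normalization and 328 with array weights. The cause of these changes was not tested. Leaving out 1 tumour gave 0 to 40 genes for RAB3A minus ZNF668, 25 to 63 for BC74C minus ZNF668 and 0 to 4 for RAB3A minus BC74C. It gave 15 to 61 among class genes, and 0 to 0 both for HGG minus ependymoma and among tumour labels. For mmr minus elw titles it gave 0 to 15 and for the interaction 0 to 2, with 0 to 0 Hox genes throughout. The fewest and most for RAB3A minus ZNF668 came without RAB3A replicate 1 (0, as in 12 of 24 fits) and without RAB3A replicate 6 (40).

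Of the 10 Hoxa pairs that passed, 7 did so within elw titles and 0 within mmr titles, where 6 tumours remain. Hoxa5 correlated past the threshold with 1 list in all tumours, 8 within elw and 0 within mmr. Within mmr its r turned to -0.25 with the Polycomb list, 0.12 with blood progenitor and granulocyte genes and 0.74 with skeletal muscle and skin genes. Signs of Hoxa differences, none of them called, turned in 8 of 261 alternative values. In ependymoma tumours alone, BC74C minus ZNF668 became 0.0198 for Hoxa3 and 0.42 for Hoxa5, and RAB3A minus BC74C became -0.12 for Hoxa2. Median centring made the last -0.0019. Array weights gave 0.15 for Hoxa2 in HGG minus ependymoma, and 0.0889, 0.0372 and 0.18 for Hoxa2, Hoxa3 and Hoxa4 in mmr minus elw titles. Leaving out 1 tumour turned signs in 12 of 620 values. RAB3A minus BC74C ranged from -0.37 to 0.47 for Hoxa2. HGG minus ependymoma ranged from -0.72 to 0.50 for Hoxa2, -0.53 to 0.0264 for Hoxa3 and -0.30 to 0.0454 for Hoxa4. Titles mmr minus elw ranged from -0.39 to 0.0687 for Hoxa3 and -0.16 to 0.0810 for Hoxa4. No scaling moved the median difference of all genes by over 0.1. No paired analysis was possible because the labels do not link any tumour of 1 class gene to a tumour of another. Partial correlations, removal of class gene means and the second Hoxa3 probe set were added after the data were seen, as was an exact test of the Hoxa5 interaction, which is not quoted because the gene was chosen for that separation.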
